A study of Mus musculus with 74 samples.

Results

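The comparison concerned medullary thymic epithelial cells of NOD mice in which the only intact copy of Aire carried the C313Y mutation, the other copy being null (genotype label Aire -/C313Y, 3 libraries). They were set against NOD wild type (Aire +/+, 3 libraries). The 6 libraries were chosen by title, since mutants and wild types share a title form in which each is numbered 1 to 3, and they are 6 of the 74 libraries of the series. The study placed different Aire alleles in mice, sorted mature cells of the thymic medulla (mTEChi, which carry much MHC class II) at 4 to 7 weeks of age and sequenced their RNA in bulk by MARS-seq, a method that tags the 3′ end of transcripts. C57BL/6 mice of that age, Aire -/- and Y86C homozygotes each with their wild type, served only to choose sets of genes. All groups compared here were NOD mice of that age. They were Aire -/C313Y and its wild type, Aire -/- (3 libraries) with its control Aire +/- (3), and Aire +/C313Y (4) with its own wild type (5, with numbered titles, of which 2 are titled C313T). The Aire -/C313Y mice thus share the null allele with the Aire +/- and Aire -/- mice and the C313Y allele with the Aire +/C313Y mice, and carry no wild-type allele. How much of Aire the null allele lacks, the base change behind C313Y and whether each library came from a separate mouse are not given in the sources used here. P-values therefore measure the spread between these libraries, which may be technical.

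AIRE is a nuclear protein of mature medullary thymic epithelium through which the thymus transcribes genes of other organs, so that developing T cells which recognise those proteins can be removed or diverted. It assembles into multimers and holds plant homeodomain (PHD) fingers, folds in which cysteine and histidine side chains grip zinc ions. Mutations of single residues in the PHD finger nearest its N-terminus are known in people to act in a dominant manner, and NOD is a strain prone to autoimmune diabetes.

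The codon that the mutation changes is given within its reading frame, from transcript Aire-204 of the GENCODE vM21 annotation on GRCm38. Codon 313 lies in exon 8 of 14, in the coding sequence, at chr10:78037935-78037937 on the minus strand, and the transcript encodes 552 residues. The reference sequence is given 5′ to 3′ in the sense of the gene, with the cysteine codon in capitals.
Aire codon 313: gagctcatctgtTGTgacggctgtccc

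Counts per library totalled 1764648 to 3620848 in wild type and 2956230 to 3651010 in -/C313Y, and 13827 of the 16591 genes in the deposited table passed the filter on low counts. Rank correlations between libraries were 0.956 to 0.982 within the groups and 0.897 to 0.924 between them, and no library was a copy of another. By their deposited corrected values, these 6 libraries, the 6 of -/- and +/-, and the 9 of +/C313Y and the numbered wild types lie in 3 separate blocks of the authors' batch correction, and what the blocks stand for is not given in the sources used here. Levels set across these lines, and the numbered wild types as a control, therefore compare across blocks. All 14 defining markers of epithelium and mTEChi were detected in every library, with a summed level of 33839 to 37717 CPM (counts scaled to one common library total) in wild type and 45185 to 46521 CPM in -/C313Y. Cd79a, a B-cell marker, was at 0 in -/C313Y 1 and 3, and Pdgfra, a fibroblast marker, was at 0 in -/C313Y 3. Wild type held 1 female and 2 male libraries and -/C313Y held 2 and 1, by Xist and Y-linked genes.

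In Aire -/C313Y the transcript level of 3138 genes differed from wild type, 22.7% of those tested. Of these, 1359 were higher (9.83%) and 1779 were lower (12.9%) than in wild type, by edgeR's quasi-likelihood test at a Benjamini-Hochberg adjusted p under 0.05. The drops were larger than the gains: 1446 genes were at least 2-fold lower and 547 at least 2-fold higher, and the median change was −2.25 on the log2 scale among lower genes and 0.88 among higher genes. The median over all tested genes was −0.03. Lower genes were mostly weakly expressed ones. Their median level in the 5 wild-type libraries with numbered titles, which took no part in the comparison, was 11.2 CPM, against 44.2 CPM for higher genes and 21 CPM for all tested genes. Of genes under 5 CPM in those libraries 19.8% were lower and 5.19% higher, whereas of genes at 100 CPM or more 5.84% were lower and 18.8% higher. These are bulk libraries, in which fewer cells of a type and less RNA per cell cannot be told apart. With the numbered wild types as the control 5020 genes changed (36.3%), 2343 higher and 2677 lower, and 2582 genes were called with both controls.

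**Figure D1:**
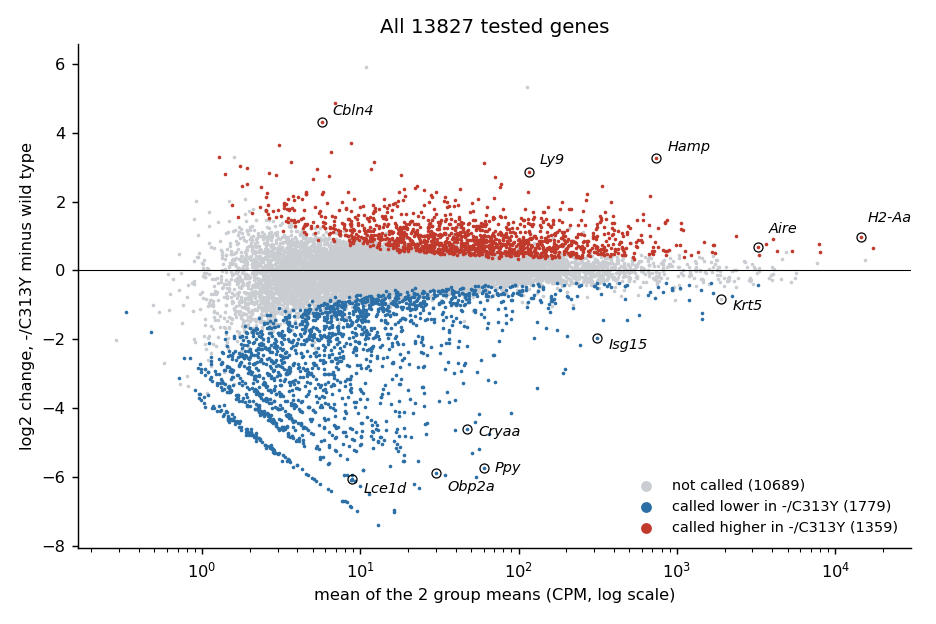
Log2 change of each tested gene in -/C313Y against wild type (vertical axis, log2 of the ratio) by the mean of its 2 group means (horizontal axis, log scale, CPM), with genes called higher and lower at an adjusted p under 0.05 in colour. Points are genes; the called drops reach much further from 0 than the called gains, with medians of −2.25 and 0.88.

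Aire itself was more abundant in the mutants. Its level was 2321, 2527 and 3031 CPM in the 3 wild-type libraries and 3696, 3609 and 4197 CPM in the 3 -/C313Y libraries. Every mutant library lay above every wild-type library. The log2 change was 0.67 ± 0.18 (standard error, as throughout) with an adjusted p of 0.00599. Tags from the null allele would be counted with those from C313Y, so the level does not say which allele gave them. In the other groups Aire averaged 2272 ± 288 CPM in +/- (SD, n = 3), 3192 ± 232 CPM in -/- (SD, n = 3), 2625 ± 525 CPM in the numbered wild types (SD, n = 5) and 3746 ± 744 CPM in +/C313Y (SD, n = 4).

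Dnmt3l, whose product is a catalytically inactive partner of the de novo DNA methyltransferases, lies next to Aire and overlaps it on the opposite strand. On GRCm38, Aire spans chr10:78030022-78043610 on the minus strand and Dnmt3l chr10:78041947-78063622 on the plus strand. Dnmt3l stood at 41.1, 43.1 and 68.5 CPM in wild type and at 118, 127 and 119 CPM in -/C313Y. The groups did not overlap, and the log2 change was 1.36 ± 0.22 (adjusted p = 3.45e-05). Whether the counting used strand is not stated, so reads from the overlap of Aire and Dnmt3l cannot be told apart.

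Over all 21 libraries, Dnmt3l followed the number of null alleles and not that of C313Y alleles. The 12 libraries with no null allele lay between 28.8 and 68.5 CPM, with a median of 43.2 CPM. The 6 libraries with 1 null allele, 3 of them -/C313Y and 3 of them +/-, lay between 99.1 and 127 CPM, with a median of 116 CPM. The 3 libraries of -/- lay between 188 and 235 CPM. These 3 ranges did not overlap, the +/C313Y libraries lay within the lowest of them, and the +/C313Y effect was −0.03 (adjusted p = 0.949). Aire, whose transcript was tested in the same libraries, showed no such order, with ranges of 2079 to 4758, 1962 to 4197 and 3034 to 3459 CPM for 0, 1 and 2 null alleles. Icosl, which encodes the partner of ICOS on T cells, at chr10:78069302-78083913, stood at 359, 354 and 431.7 CPM in wild type and 465, 434.9 and 468 CPM in -/C313Y (0.38 ± 0.17, adjusted p = 0.112). Pfkl, the liver form of phosphofructokinase, at chr10:77986947-78010083, stood at 103, 92.9 and 113 and 83.7, 74.2 and 92.3 CPM (−0.19 ± 0.17, adjusted p = 0.493). The groups did not overlap for either gene, but neither passed the test. Within 5 Mb of Aire 33 of 168 tested genes were called, 19.6%, against 22.7% of all tested genes.

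**Figure D2:**
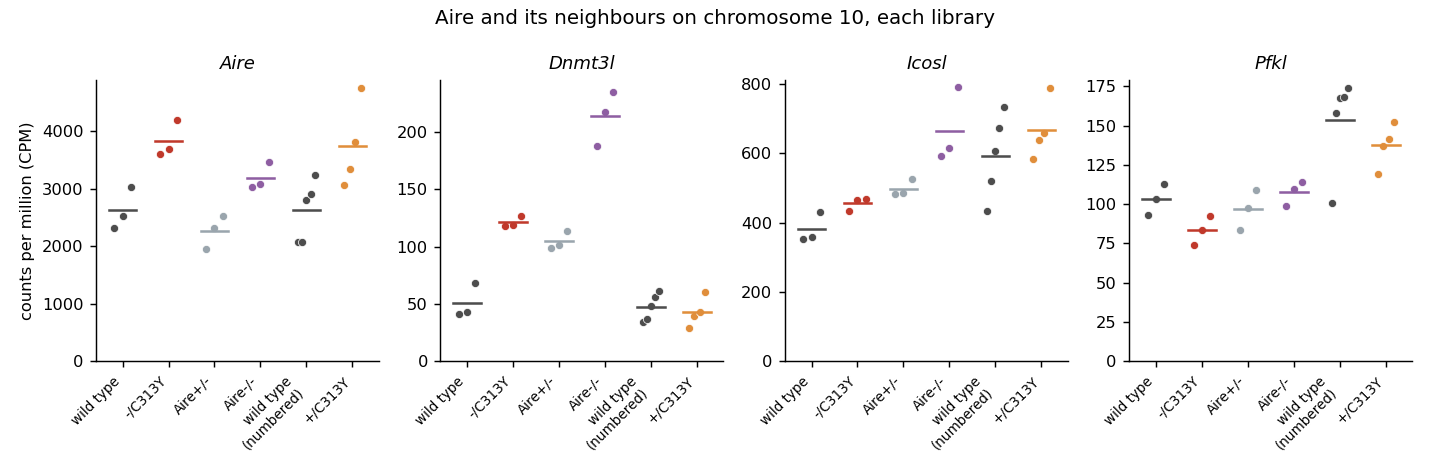
Level of Aire, Dnmt3l, Icosl and Pfkl (vertical axis, CPM) in each library of the 6 NOD groups; points are libraries and bars are group means. Dnmt3l forms 3 steps, at 28.8 to 68.5 CPM without a null allele, 99.1 to 127 CPM with 1 and 188 to 235 CPM with 2, while Aire does not follow that order.

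Genes known from textbooks as Aire-induced antigens fell together. Of 31 such genes 28 were in the table and 26 were tested, 19 of which were lower and 3 higher, with a median log2 change of −3.08, against 12.9% lower and 9.83% higher among all tested genes. Obp2a, which encodes an odorant-binding lipocalin, stood at 66.9, 62.9 and 48.3 CPM in wild type and 0.840, 0.548 and 1.35 CPM in -/C313Y (−5.88 ± 0.38, adjusted p = 2.19e-11). Csn1s2a, a milk casein, stood at 29.3, 37.4 and 31.5 CPM and 1.12, 0.548 and 2.03 CPM (−4.61 ± 0.47, adjusted p = 1.01e-07). In both genes every mutant library was at 2.03 CPM or less. Mup4, a major urinary protein that carries pheromones, had 8.88, 5.67 and 7.46 CPM in wild type and 0, 0 and 0.677 CPM in -/C313Y, a ratio of 38.9 (95% counting interval 10.4 to 328). Such intervals, here and below, cover counting error only. The members that were not called were Csn3 (−1.73), Fabp9 (−0.39), Reg3g (−0.19) and Apoc3 (0.41). Dcpp1, Dcpp2, Mup4 and the Reg3 genes have near-identical copies, between which the counting could split reads.

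Hormones of islet and gut fell in 13 of 16 tested cases (against 12.9% of all tested genes), with a median log2 change of −3.60, and the only higher one was Chga. Ins2, a gene of insulin and the antigen of much islet autoimmunity in NOD mice, stood at 25.5, 47.6 and 37.6 CPM in wild type and 1.12, 0.274 and 0.677 CPM in -/C313Y (−5.53 ± 0.62, adjusted p = 5.11e-07). Ppy, pancreatic polypeptide, stood at 84.9, 152 and 117 CPM and 2.24, 1.37 and 2.37 CPM (−5.75 ± 0.52, adjusted p = 1.01e-07). The groups were far apart for both, and Ins2 shares reads with its close paralog Ins1 to an unknown extent. Sst, somatostatin, stood at 110.1, 60.1 and 128 CPM and 2.24, 1.64 and 3.04 CPM (−5.32 ± 0.91, adjusted p = 0.000387). Gip and Gast, which encode the incretin GIP and gastrin, changed by −5.13 ± 0.45 (adjusted p = 4.32e-09) and −4.58 ± 0.42 (adjusted p = 1.13e-08). Cck, cholecystokinin, kept a clear residual level, with 90.6, 163 and 135 CPM in wild type and 12.6, 13.4 and 11.5 CPM in -/C313Y (−3.24 ± 0.27, adjusted p = 2.51e-09). The smallest called drop was that of Gcg, which encodes glucagon, from 21.6, 29.5 and 39.8 to 16.8, 11.2 and 13.2 CPM (−1.02 ± 0.34, adjusted p = 0.0337). With 1 library left out, 12 or 13 of the 16 hormones were lower.

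The islet autoantigens of type 1 diabetes did not move one way. Of 7 tested, Ins2 and Iapp fell and Ptprn2 and Chga rose, with a median of 0.02. Iapp, islet amyloid polypeptide, stood at 38.8, 21 and 24.6 CPM in wild type and 6.44, 7.40 and 4.40 CPM in -/C313Y (−2.08 ± 0.33, adjusted p = 3.45e-05). Ptprn2, a phosphatase-like protein of secretory granules, stood at 8.88, 15.9 and 11 CPM and 29.1, 23.8 and 18.9 CPM (1.18 ± 0.25, adjusted p = 0.000936). Chga, chromogranin A, stood at 131, 142 and 159 and 167, 167 and 253 CPM (0.56 ± 0.19, adjusted p = 0.0335). The rise of Chga rested on single libraries, with an adjusted p of up to 0.263 when wild type 1, wild type 2 or -/C313Y 3 was left out. Gad1 (0.02), Ptprn (−0.25) and Ica1 (0.34) did not pass the test.

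Digestive enzymes of the pancreatic acinus were lower in 13 of 15 tested cases (against 12.9% of all tested genes), with a median of −4.04 and none higher. Prss2, a trypsinogen, stood at 22.5, 30.0 and 18.8 CPM in wild type and 0.560, 1.10 and 1.35 CPM in -/C313Y (−4.39 ± 0.44, adjusted p = 3.81e-08). Ctrb1, a chymotrypsinogen, stood at 68.7, 73.1 and 79.5 CPM and 4.48, 1.92 and 8.79 CPM (−3.78 ± 0.37, adjusted p = 9.16e-08). Cela3b, an elastase, changed by −4.60 ± 0.49 (adjusted p = 1.05e-07). All mutant libraries lay below all wild-type libraries for each. Ptf1a, the transcription factor of the acinar lineage, was lower as well, at 7.10, 9.07 and 3.31 and 1.68, 2.74 and 2.71 CPM (−1.26 ± 0.45, adjusted p = 0.0439). Its call was lost when single libraries were left out. Ctrl, a chymotrypsin-like protease (0.08), was not called.

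Intestinal genes divided. Of 22 tested, 11 were lower, 2 higher and 9 not called, with a median of −1.55, against 12.9% lower and 9.83% higher among all tested genes. Among the lower ones, Alpi, intestinal alkaline phosphatase, had 9.18, 19.8 and 18.5 CPM in wild type and 0, 0 and 0.338 CPM in -/C313Y, a ratio of 154 (95% counting interval 27.2 to 6146). Muc2, the gel-forming mucin of goblet cells, stood at 7.99, 11.9 and 14.1 CPM and 0.280, 0.548 and 0.677 CPM (−4.29 ± 0.60, adjusted p = 5.99e-06). Reg1, Reg4 and Fabp2 changed by −4.68, −4.16 and −3.36. The higher ones were Lypd8, a protein of the colonic surface that keeps bacteria away, from 95, 95.2 and 63.8 to 131, 127 and 123 CPM (0.71 ± 0.20, adjusted p = 0.00797), and Itln1, an intelectin that binds microbial sugars. Itln1 stood at 140.0, 107 and 121 CPM and 176, 170.1 and 189 CPM (0.66 ± 0.18, adjusted p = 0.00689). Both gains were under 2-fold.

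Liver genes were lower in 12 of 17 tested cases (against 12.9% of all tested genes) and higher in 2 (9.83%), with a median of −1.74. Cyp1a2, a cytochrome P450 of hepatocytes and an autoantigen in AIRE deficiency, had 23.7, 38.5 and 35.4 CPM in wild type and 0, 0 and 0.677 CPM in -/C313Y, a ratio of 160.3 (95% counting interval 43.9 to 1330.0). Saa2, a serum amyloid A, stood at 34.6, 47.0 and 57.7 CPM and 1.96, 3.56 and 5.41 CPM (−3.57 ± 0.43, adjusted p = 1.66e-06). Alb, albumin, stood at 6.51, 7.37 and 9.39 CPM and 0.560, 0.274 and 0 CPM, a ratio of 26.7 (8.77 to 133). The exceptions were Crp, C-reactive protein, at 66.6, 52.7 and 53.0 and 93.8, 96.4 and 86.3 CPM (0.80 ± 0.18, adjusted p = 0.00150), and F2, prothrombin, at 9.77, 11.9 and 15.7 and 31.1, 26.6 and 15.6 CPM (1.09 ± 0.26, adjusted p = 0.00273). For F2 the third mutant library lay just below the highest wild-type library.

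**Figure D3:**
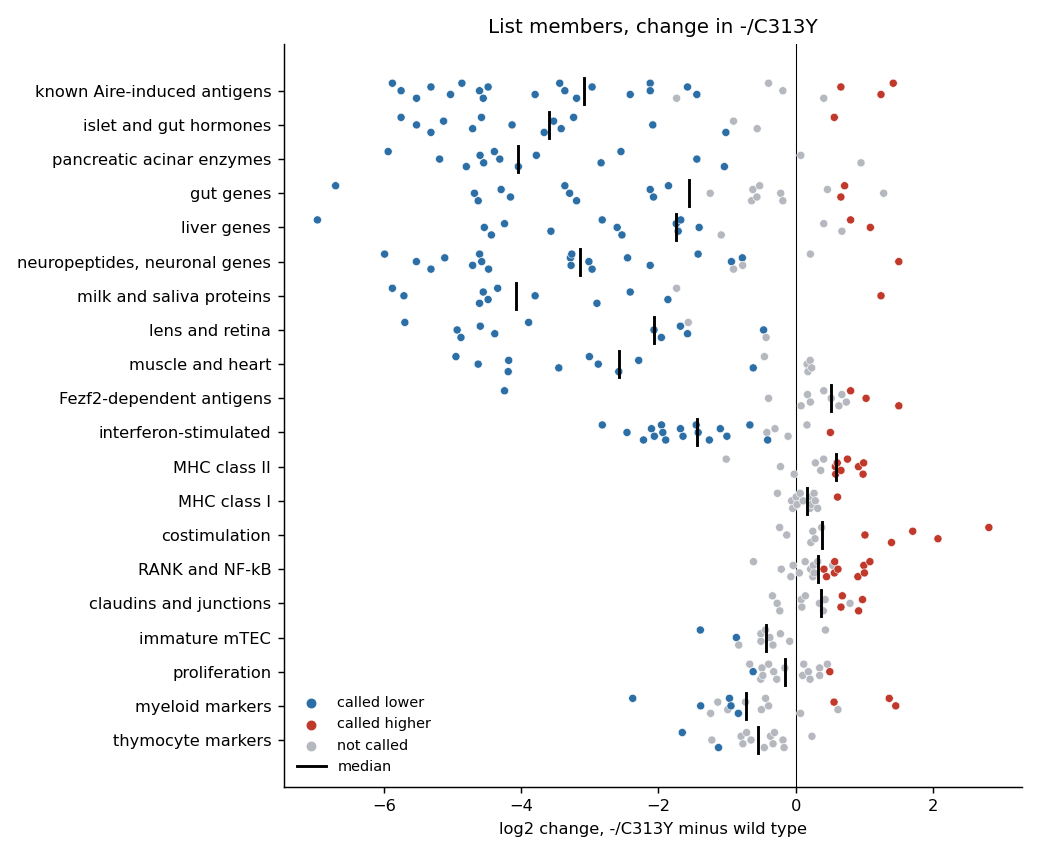
Log2 change of every tested member of the gene lists in -/C313Y against wild type (horizontal axis, log2 of the ratio, with genes that had no count in the mutants drawn at their lower bound), 1 line per list; points are genes, coloured where called, and the bar is the list's median. Tissue-antigen and interferon lists lie to the left, at medians of −4.04 for acinar enzymes and −1.44 for interferon-stimulated genes. The exception is the list of Fezf2-dependent antigens, at a median of 0.52. MHC class II and costimulation lists lie to the right.

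Neuropeptides and brain genes were lower in 18 of 22 cases (against 12.9% of all tested genes), with a median of −3.14, and Resp18 alone was higher. Avp, vasopressin, stood at 86.1, 137 and 93.6 CPM in wild type and 0.840, 1.37 and 2.37 CPM in -/C313Y (−5.99 ± 0.68, adjusted p = 3.9e-06). Oxt, oxytocin, stood at 35.8, 59.5 and 51.4 CPM and 2.52, 1.37 and 2.03 CPM (−4.48 ± 0.51, adjusted p = 8.46e-07). Calb2, the calcium buffer calretinin, stood at 39.1, 35.7 and 62.4 CPM and 0.560, 1.64 and 0.338 CPM (−5.53 ± 0.50, adjusted p = 1.64e-08). In these 3 genes the mutant libraries were at most 2.52 CPM. Gal (−3.27), Npy (−2.97) and Pomc (−2.45), which encode galanin, neuropeptide Y and the precursor of corticotropin, fell less and remained measurable in every mutant library. Resp18, a protein of neuroendocrine granules, stood at 52.7, 74.8 and 63.8 CPM in wild type and 179.8, 165 and 150.2 CPM in -/C313Y (1.5 ± 0.28, adjusted p = 0.000361).

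Milk and salivary genes were lower in 10 of 12 cases (median −4.07), lens and retina genes in 11 of 13 (−2.07), muscle and heart genes in 10 of 15 (−2.58) and germ cell genes in 4 of 7 (−1.66), against 12.9% of all tested genes. In the eye list, Cryaa, the lens chaperone alpha-crystallin, stood at 85.8, 79.3 and 109 CPM in wild type and 2.80, 3.56 and 4.06 CPM in -/C313Y (−4.60 ± 0.33, adjusted p = 1.66e-10). Crybb2, a structural crystallin, stood at 22.5, 33.4 and 34.5 CPM and 0.280, 0.274 and 1.01 CPM (−5.70 ± 0.50, adjusted p = 4.32e-09). In muscle and heart, Nppa, the atrial natriuretic peptide, stood at 16.0, 30.6 and 28.2 CPM and 0.840, 1.64 and 0 CPM (−4.63 ± 0.63, adjusted p = 7.7e-06). The 5 muscle genes not called (Myh7, Myl7, Tnnt2, Tnni3 and Ttn) changed by −0.46 to 0.23. Among germ cell genes 2 that encode components of the egg coat went in opposite directions. Zp3 had 14.5, 18.7 and 25.7 CPM in wild type and 0.280, 0 and 0.338 CPM in -/C313Y, a ratio of 102 (95% counting interval 27.7 to 846). Zp2 stood at 23.4, 27.2 and 18.5 CPM and 64.1, 71.8 and 47.7 CPM (1.56 ± 0.21, adjusted p = 4.52e-06). All mutant libraries lay below wild type for Zp3 and above it for Zp2.

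Among the milk genes, the caseins showed the same contrast. Csn1s1 and Csn1s2a changed by −4.48 and −4.61, whereas Csn2, which lies in the same casein cluster, stood at 398, 424 and 616 CPM in wild type and 1262, 1005 and 862 CPM in -/C313Y (1.24 ± 0.22, adjusted p = 0.000137). Tg, thyroglobulin, was a further textbook antigen that was higher, at 13.6, 10.8 and 12.2 and 23.8, 41.4 and 25.7 CPM (1.42 ± 0.26, adjusted p = 0.000154). Fezf2 encodes a transcription factor that drives another share of tissue antigens in these cells. Its own transcript stood at 1021, 798 and 857 CPM and 929, 976 and 867 CPM (0.17 ± 0.13, adjusted p = 0.388), with overlapping groups. Of 13 genes in the Fezf2 list 3 were higher (Resp18, Crp and Maoa), 1 lower (Apoa2) and 9 not called, with a median of 0.52. Maoa, a monoamine oxidase, stood at 5.92, 7.37 and 9.67 CPM and 10.4, 18.1 and 14.9 CPM (1.03 ± 0.26, adjusted p = 0.00445). Apoa2, an apolipoprotein, stood at 45.6, 38 and 16.6 CPM and 1.96, 1.64 and 1.01 CPM (−4.24 ± 0.53, adjusted p = 2.59e-06).

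The 12 lower genes with the most negative fitted change, among those with at least 5 CPM in wild type and groups that did not overlap, included genes of skin, saliva, eye, bone, brain and testis. In 11 of them the 3 mutant libraries held no count at all, so that only a bound can be given, taking 3 counts over the group as the floor. Fitted changes against no counts depend on the prior count, so these 12 are not shown to have fallen further than genes that kept a few counts, such as Cyp1a2 and Alpi. Lce1d, a protein of the cornified envelope of skin, stood at 11, 10.8 and 31.8 CPM in wild type and was at least 66.2-fold lower. Smr3a, a salivary peptide precursor, stood at 3.55, 14.7 and 13.8 CPM and was at least 34.1-fold lower. Cryba1, a lens crystallin, stood at 6.51, 7.37 and 12.2 CPM and was at least 30.6-fold lower. Rlbp1, the retinal-binding protein of the visual cycle, and Il31, a cytokine of itch, were at least 29.4-fold and 31.4-fold lower. Fev, a transcription factor of serotonergic neurons, Ms4a3, a membrane protein of myeloid progenitors, and Kiss1, the peptide that starts puberty, were at least 24.8-fold, 23.6-fold and 23.2-fold lower. Spaca3, an acrosomal protein of sperm, Fgf3, a fibroblast growth factor, and BC048679 were at least 22.8-fold, 20.5-fold and 36.4-fold lower. Bglap, osteocalcin of bone, kept 1 count over the 3 mutants against 17.8, 38.5 and 21 CPM in wild type, a ratio of 237 (95% counting interval 42 to 9403). Lce genes have close paralogs, and the count for Lce1d is uncertain to that extent.

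In all, 21 genes averaged 5 CPM or more in wild type and had no count in -/C313Y. Of these, 8 also had none in the 3 Aire -/- libraries and 2 had none in the 4 +/C313Y libraries, Kiss1 and Prh1. Prh1 and Kiss1 are named here after their values were seen. Every one of the 21 had counts in the +/- group and in the numbered wild types. The 21 were picked for having no count in -/C313Y, and the groups differ in library number and depth. These counts therefore do not rank the groups.

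A set of 1294 genes that were at least 2-fold lower in Aire -/- than in wild type on the C57BL/6 strain was used as a measure of Aire-dependent transcription that no NOD library had chosen. Of its 1253 tested genes 890 were lower in -/C313Y (71.0%, against 12.9% of all tested genes) and 7 were higher (0.559%, against 9.83%), with a median log2 change of −2.03. The 7 were Crp, Rps6kl1, Sprr1b, Fbn1, Lect1, Phf24 and Chga. The set took up 3.57, 3.6 and 3.52% of all counts in wild type and 1.31, 1.4 and 1.36% in -/C313Y. These are 3.56% ± 0.036 and 1.36% ± 0.046 (SD, n = 3 each), a difference of −1.39 on the log2 scale, and the groups were far apart. The exact permutation test gave a two-sided p of 0.1, which is the smallest that 3 libraries against 3 can give. For comparison, the share was 3.49% ± 0.061 in +/- and 1.55% ± 0.022 in -/- (SD, n = 3 each), 3.45% ± 0.26 in the numbered wild types (SD, n = 5) and 1.63% ± 0.043 in +/C313Y (SD, n = 4).

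The opposite set held 598 genes at least 2-fold higher in Aire -/- on C57BL/6. Of its 553 tested genes 316 were higher in -/C313Y (57.1%, against 9.83% of all tested genes). Another 6 were lower (1.08%, against 12.9%), and the median was 0.92. Its share of counts was 2.47% ± 0.023 in wild type and 4.66% ± 0.16 in -/C313Y (SD, n = 3 each). The share was 3.40% ± 0.040 in +/- and 5.14% ± 0.18 in -/- (SD, n = 3 each). It was 2.53% ± 0.31 in the numbered wild types (SD, n = 5) and 3.59% ± 0.53 in +/C313Y (SD, n = 4). Fewer genes were detected in the mutants. After each library was thinned to 1536436 counts, 15897 ± 28 genes had at least 1 count in wild type and 14697 ± 14.6 in -/C313Y (SD, n = 3 each), a difference of −1200.3 genes (two-sided exact permutation p = 0.1, the smallest possible). The same measure gave 16065 ± 25.1 in +/- and 14868 ± 89.6 in -/- (SD, n = 3 each), 15944 ± 241 in the numbered wild types (SD, n = 5) and 15049 ± 184 in +/C313Y (SD, n = 4). These groups lie in other blocks of the authors' correction.

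Among higher genes, Hamp stood out by level. Hamp encodes hepcidin, the liver hormone that limits iron uptake. It stood at 156, 177 and 123 CPM in wild type and 1463, 1310.3 and 1216 CPM in -/C313Y (3.26 ± 0.45, adjusted p = 3.65e-05). The paralog Hamp2, named here after its values were seen, moved the other way, from 23.1, 19.3 and 21.3 to 4.20, 4.93 and 5.75 CPM (−1.98 ± 0.39, adjusted p = 0.000381). The groups overlapped for neither gene, and the close similarity of the 2 genes leaves the division of reads between them uncertain. Ly9, a receptor of the SLAM family on lymphocytes, stood at 30.8, 23.8 and 34.2 CPM in wild type and 233, 196 and 177 CPM in -/C313Y (2.87 ± 0.29, adjusted p = 1.11e-07). Ostn, the muscle and bone peptide musclin, stood at 13.9, 16.4 and 11 CPM and 132, 88.7 and 103 CPM (3.12 ± 0.40, adjusted p = 6.77e-06). B3galt5, a galactosyltransferase that builds glycan chains, stood at 22.5, 27.2 and 12.2 CPM and 133, 119 and 111 CPM (2.72 ± 0.28, adjusted p = 1.34e-07).

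The other large gains were in weakly expressed genes. Cbln4, a secreted organiser of synapses, stood at 1.48, 0 and 0 CPM in wild type and 11.2, 10.4 and 11.2 CPM in -/C313Y (4.30 ± 0.61, adjusted p = 6.47e-06). Fam19a1, a small secreted protein of brain, stood at 0.592, 3.40 and 0.83 CPM and 19.6, 10.7 and 16.9 CPM (3.69 ± 0.51, adjusted p = 5.41e-06). Skint9, of a butyrophilin-like family of thymus and skin, stood at 2.96, 3.40 and 1.93 CPM and 32.8, 25.2 and 7.10 CPM (3.14 ± 0.52, adjusted p = 0.000250), and the third mutant library was well below the other 2. The Skint genes are near copies of each other. Pik3c2g, a phosphoinositide kinase (2.96), Olfr1136, an olfactory receptor (2.95), Prss35, a serine protease-like protein (2.64), Lrit2 (3.64) and Lyrm7os (2.78) completed the 12 largest fitted gains. Lyrm7os, by its symbol a transcript of the strand opposite Lyrm7, cannot be told apart from reads of that gene without strand.

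**Figure D4:**
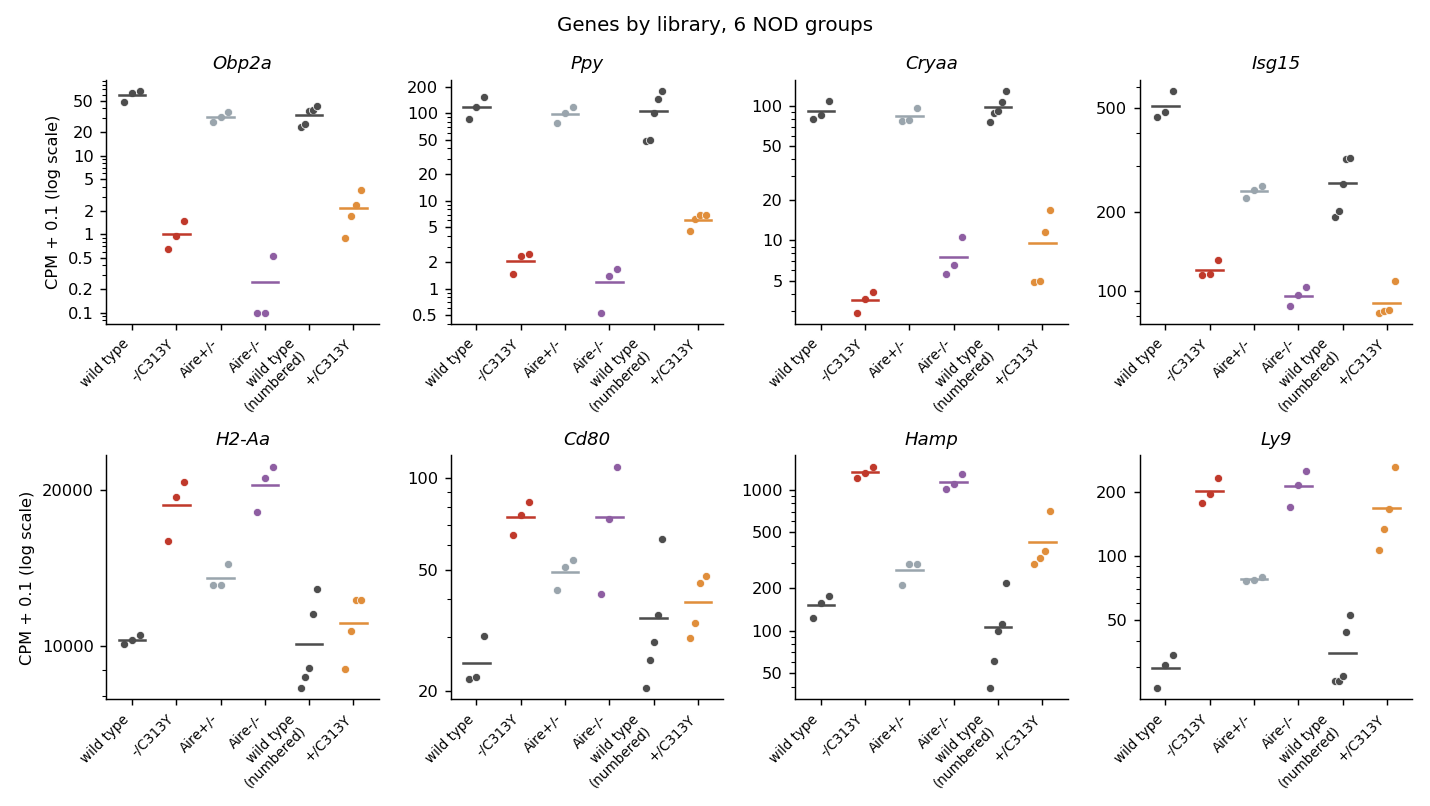
Level of Obp2a, Ppy, Cryaa, Isg15, H2-Aa, Cd80, Hamp and Ly9 in each library of the 6 NOD groups (vertical axis, CPM + 0.1, log scale); points are libraries and bars are group means. Obp2a, Ppy and Cryaa lie far lower in all 3 -/C313Y libraries than in wild type, and Hamp, at 1216 to 1463 CPM, far higher than the 123 to 177 CPM of wild type.

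Genes of antigen presentation by MHC class II were higher in 8 of 14 cases (against 9.83% of all tested genes) and lower in none, with a median of 0.58. H2-Aa, the alpha chain of the class II molecule I-A, stood at 10278, 10101 and 10495 CPM in wild type and 20770, 19412 and 15928 CPM in -/C313Y (0.98 ± 0.17, adjusted p = 0.000103). H2-Oa, a chain of the peptide-loading inhibitor H2-O, stood at 441, 477 and 526 CPM and 918, 849 and 870.4 CPM (0.99 ± 0.14, adjusted p = 8.49e-06). In both, every mutant library was above every wild-type library. H2-Ob, H2-Eb1 and H2-DMa rose by 0.92, 0.76 and 0.58, and H2-Ab1 (0.66), the class II master regulator Ciita (0.58) and the protease cathepsin S, Ctss (0.61), passed the test too. The invariant chain Cd74, at 12359, 15583 and 15463 and 14522, 15013 and 19201 CPM, did not (0.29 ± 0.19, adjusted p = 0.299). The cells had been sorted on high MHC class II protein. Of 14 MHC class I genes 1 was higher, Tapbp, tapasin (0.61 ± 0.14, adjusted p = 0.00172), and the median was 0.16. With the numbered wild types as control 8 of the 14 were higher (16.9% of all tested genes, median 0.39), and 3 with all 8 wild types (12.8%), so the count for class I depended on the control.

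Costimulatory molecules were higher in 5 of 11 tested cases (against 9.83% of all tested genes), with none lower and a median of 0.38. Cd80, a ligand of CD28 and CTLA-4 that marks mature mTEC, stood at 30.2, 22.1 and 21.8 CPM in wild type and 75.6, 83 and 64.9 CPM in -/C313Y (1.71 ± 0.32, adjusted p = 0.000301). Cd86, a ligand of the same receptors, stood at 5.33, 5.67 and 6.35 CPM and 31.9, 19.7 and 15.6 CPM (2.08 ± 0.41, adjusted p = 0.000525). Cd70, the ligand of CD27, stood at 183, 207 and 233 CPM and 362, 339 and 452 CPM (1.01 ± 0.18, adjusted p = 0.000154). Their groups did not overlap. Tnfsf9, the 4-1BB ligand, stood at 112, 96.9 and 119 CPM and 268, 283 and 244 CPM (1.4 ± 0.17, adjusted p = 8.46e-07). The receptor Ctla4 stood at 0.592, 0.567 and 0.83 CPM and 5.6, 3.56 and 4.74 CPM, near the lower limit of what was tested (2.82 ± 0.60, adjusted p = 0.000887).

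RANK and the noncanonical NF-kB pathway drive the maturation of mTEC and the expression of Aire. Of its 21 listed genes 9 were higher (against 9.83% of all tested genes) and none lower, with a median of 0.32. The receptor RANK itself, Tnfrsf11a, stood at 97.1, 90.7 and 51.9 CPM in wild type and 118, 113 and 87.9 CPM in -/C313Y and was not called (0.54 ± 0.23, adjusted p = 0.0896). Tnfrsf11b, the decoy receptor osteoprotegerin, stood at 136, 154 and 112 CPM and 269.7, 239 and 229 CPM (1.0 ± 0.17, adjusted p = 7.76e-05). Map3k14, the kinase NIK, stood at 46.5, 49.9 and 51.4 CPM and 74.8, 80.3 and 115 CPM (0.99 ± 0.18, adjusted p = 0.000160). For both called genes the mutants lay above all wild types. Nfkbia, the inhibitor IkB-alpha and itself a target of NF-kB, stood at 3009.9, 2742 and 3184 CPM and 5169.8, 4513 and 5696 CPM (0.91 ± 0.13, adjusted p = 1.2e-05). Traf1 (1.08), Relb (0.62), Traf6 (0.57), Birc3 (0.57), Birc2 (0.45) and Nfkbie (0.41) were the other higher members. With 1 library left out the list had 6 to 9 higher members. Traf1, Relb, Nfkbia, Tnfrsf11b and Map3k14 kept their calls in every such fit, and calls were lost among Traf6, Birc3, Birc2 and Nfkbie. The subunits Nfkb1 (0.05), Nfkb2 (0.14), Rel (−0.21) and Rela (−0.04) were not called.

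Of 14 claudin and tight-junction genes 4 were higher and none lower, against 9.83% and 12.9% of all tested genes. Cldn4, a claudin used as a marker of the Aire-expressing lineage, stood at 122, 159 and 168 CPM in wild type and 248, 248 and 283 CPM in -/C313Y (0.92 ± 0.20, adjusted p = 0.00138). Cldn13 (0.98) and F11r (0.68), the junctional adhesion molecule A, rose as well. Marveld2 (0.66) lost its call when single libraries were left out. Among 16 chemokines and cytokines of thymic epithelium 4 were higher and 2 lower, the latter a share near the 12.9% of all tested genes. Il15, which sustains natural killer and innate-like T cells, stood at 61.0, 51.6 and 69.0 CPM and 183, 143 and 136 CPM (1.46 ± 0.16, adjusted p = 1.01e-07). Il1rn, the interleukin-1 receptor antagonist, stood at 165, 220.4 and 136 CPM and 521, 445 and 462 CPM (1.58 ± 0.23, adjusted p = 1.16e-05). In both the mutants lay above all wild types. Cxcl10, a chemokine that attracts activated T cells, stood at 1945, 1427 and 1635 CPM and 3003, 3378 and 2777 CPM (0.99 ± 0.17, adjusted p = 6.39e-05). Xcl1, the chemokine that places thymic dendritic cells, fell from 13.3, 9.63 and 13.8 to 1.96, 1.37 and 0.677 CPM (−3.03 ± 0.62, adjusted p = 0.000791). Tslp changed by −2.32. The fourth higher gene, Ccl25 (1.18), lost its call without any 1 of wild types 1 to 3 or -/C313Y 1, with an adjusted p of up to 0.0750.

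Interferon-stimulated genes were lower. Of 22 tested, 17 fell (against 12.9% of all tested genes), Usp18 rose (9.83%) and 4 were not called, with a median of −1.44. Isg15, a ubiquitin-like protein induced by interferon, stood at 581, 462 and 483 CPM in wild type and 115, 131 and 116 CPM in -/C313Y (−1.96 ± 0.17, adjusted p = 5.85e-09). Bst2, tetherin, stood at 534, 451 and 552 CPM and 166, 181 and 169 CPM (−1.45 ± 0.19, adjusted p = 3.01e-06). Mx2, a dynamin-like antiviral GTPase, stood at 43.2, 39.7 and 35.4 CPM and 9.24, 9.86 and 9.13 CPM (−1.94 ± 0.24, adjusted p = 1.04e-06). The groups were apart for all 3. Oas2, an oligoadenylate synthetase, stood at 53.9, 32.9 and 37.0 CPM and 6.44, 5.48 and 4.06 CPM (−2.82 ± 0.43, adjusted p = 3.14e-05). Usp18, which removes ISG15 from proteins, went the other way at 284, 225 and 305 and 415, 324 and 322 CPM (0.51 ± 0.15, adjusted p = 0.0150), as Cxcl10, also inducible by interferon, did above.

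The level of Isg15 in the wild types depended on which wild types were taken. Isg15 lay at 462 to 581 CPM in the wild types of this comparison, at 191 to 321 CPM in the numbered wild types and at 227 to 252 CPM in +/-. The ranges of the 2 wild types did not overlap. It lay at 115 to 131 CPM in -/C313Y, 87.3 to 104 CPM in -/- and 82.4 to 109 CPM in +/C313Y, so that every library of these 3 groups was below every library of the 3 control groups. Of the interferon list 13 members were lower in -/- (background 9.11% of tested genes lower) and 18 were lower in +/C313Y (background 11%). The 2 wild types overlapped for Mx2, at 35.4 to 43.2 CPM here and 26.0 to 46.8 CPM in the numbered ones. They overlapped for Bst2 too, at 451 to 552 and 216 to 466 CPM. With the numbered wild types as control the list had 16 lower and 1 higher (median −1.20), against 19.4% and 16.9% of all tested genes.

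The promoters of these genes were searched for GAAA, 2 bases of any kind and GAAA, a core of the interferon-stimulated response element, on both strands, with overlapping matches counted separately. RefSeq windows on GRCm38.p6 from 250 bases before to 50 bases after the start were in the table for 15 of the 22 genes, too few for a share over the list. Of the 15 windows 9 held the motif, against 3.49% of all 27025 promoters of the same length. Among the 12 called lower 8 held it, and the ninth was that of Ifit1, which was not called (0.17). A match is a description of these letters only. The 200 bases before the start of the 4 genes with most matches among those lower are printed here because these genes moved together, with matches to either strand in capitals.
Isg15, chr4:156200819-156201018, minus strand: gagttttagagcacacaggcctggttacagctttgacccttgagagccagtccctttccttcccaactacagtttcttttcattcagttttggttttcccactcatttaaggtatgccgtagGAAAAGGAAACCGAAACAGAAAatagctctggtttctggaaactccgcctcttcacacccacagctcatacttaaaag
Ifit3, chr19:34583329-34583528, plus strand: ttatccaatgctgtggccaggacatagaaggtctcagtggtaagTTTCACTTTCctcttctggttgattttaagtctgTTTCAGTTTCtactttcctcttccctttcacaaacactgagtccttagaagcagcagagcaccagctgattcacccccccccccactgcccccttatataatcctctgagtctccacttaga
Oas1a, chr5:120907526-120907725, minus strand: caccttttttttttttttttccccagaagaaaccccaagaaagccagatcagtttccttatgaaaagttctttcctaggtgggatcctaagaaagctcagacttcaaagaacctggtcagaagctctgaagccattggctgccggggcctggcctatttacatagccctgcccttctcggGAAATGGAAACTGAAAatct
Bst2, chr8:71537473-71537672, minus strand: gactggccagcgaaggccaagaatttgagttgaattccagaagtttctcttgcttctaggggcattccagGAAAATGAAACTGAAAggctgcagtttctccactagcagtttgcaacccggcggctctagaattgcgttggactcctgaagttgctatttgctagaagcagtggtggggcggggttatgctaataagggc
In this window Isg15 holds 3 overlapping matches and Ifit3, Oas1a and Bst2 hold 2 each. Nfkbia, from the NF-kB list, is shown for contrast, with the single match to GGGA, 2 bases of any kind and TTCC, a form of the NF-kB site, in capitals. That motif was in 1 of the 17 promoters of the NF-kB list that were in the table and in 1.43% of all promoters.
Nfkbia, chr12:55492648-55492847, minus strand: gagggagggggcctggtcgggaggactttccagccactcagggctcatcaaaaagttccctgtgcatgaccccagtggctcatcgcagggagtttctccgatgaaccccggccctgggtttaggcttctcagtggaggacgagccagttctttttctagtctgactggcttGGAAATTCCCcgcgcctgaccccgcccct

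Lists of other medullary cell states held called genes in both directions, to be read against 9.83% higher and 12.9% lower among all tested genes. Of 11 genes of immature and basal mTEC, Ly6a and Fgfr2 were lower and none higher (median −0.44), and 10 of the 11 changes were below 0. Ly6a, the surface protein Sca-1, stood at 1849.9, 1529 and 1400.5 CPM in wild type and 930.3, 706 and 775 CPM in -/C313Y (−0.86 ± 0.16, adjusted p = 0.000159). The basal keratin Krt5 stood at 2793, 2094 and 2671 CPM and 977, 1579.8 and 1349.7 CPM, without overlap, but did not pass the test (−0.83 ± 0.35, adjusted p = 0.0984). The summed level of this list was 11743 to 13987 CPM in wild type and 7768 to 9492 CPM in -/C313Y. Of 19 keratinocyte-like genes 4 were higher and 3 lower, of which Klk7 (−1.60), Lce3a (ratio 31.9, 95% counting interval 8.43 to 270.3) and Krt2 fell and Calm4, Sprr1b, Spink5 and Dmkn rose by at most 1.04. Of 20 tuft cell genes Tas1r3, a taste receptor subunit, was the 1 called, and it lost that call when single libraries were left out. With the numbered wild types as control the tuft list had 6 higher and 1 lower, against 16.9% and 19.4% of all tested genes. The list's median was then 1.02 in place of 0.27.

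Among lineage transcription factors of the mimetic mTEC, cells that resemble peripheral tissues, 5 of 15 were lower and 2 higher, against 12.9% and 9.83% of all tested genes. Foxi1, the factor of ionocytes, stood at 3.85, 3.97 and 5.80 CPM in wild type and had no count in -/C313Y, at least 15.9-fold lower. Sox10, of glia and melanocytes, stood at 2.37, 5.10 and 4.97 CPM and 0.280, 0.548 and 0 CPM, a ratio of 13.5 (95% counting interval 4.27 to 68.9). Hnf4a, Foxi2 and Ptf1a were the other lower ones, and each of them lost its call when single libraries were left out. Insm1, the factor of neuroendocrine cells, stood at 353, 292 and 359.6 CPM and 459, 613 and 489 CPM (0.76 ± 0.13, adjusted p = 7.8e-05), and Hnf4g, of gut epithelium, rose by 0.89. The mutants lay above all wild types for both.

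Lists of other cell types moved in both directions. Myeloid markers summed to 1025 to 1301 CPM in wild type and 1173 to 1307 CPM in -/C313Y, and of 17 tested 3 were higher and 5 lower, against 9.83% and 12.9% of all tested genes. Fcer1g, the shared signalling chain of Fc receptors (1.46), Batf3 (1.36) and Lyz2 (0.56) rose, while Itgam (−2.37), Cd14 (−1.38), Csf1r (−0.94), Adgre1 and Tyrobp fell. Without wild type 3 the list had 4 higher and 2 lower. With the numbered wild types as control it had 3 and 10, against 16.9% and 19.4% of all tested genes. With all 8 wild types it had 3 and 11, against 12.8% and 16.4%. Thymocyte markers summed to 333 to 386 CPM and 274 to 311 CPM, with Cd3g (−1.65) and Cd2 (−1.12) lower of 14, a share near that of all tested genes. There were 7 lower and 1 higher with the numbered wild types as control, against 19.4% and 16.9% of all tested genes. With all 8 wild types there were 6 and 1, against 16.4% and 12.8%. B-cell markers summed to 117 to 134 CPM and 135 to 167 CPM, with Blk (1.23) and Cd79b (0.55) higher and Ms4a1 (−2.67) and Vpreb3 (−1.86) lower of 7. Fibroblast and endothelial markers summed to 273 to 381 CPM and 258 to 304 CPM. In that list Col1a1 (−2.72), Col1a2 (−1.90) and Vwf (−1.80) were lower and Dcn (0.85) was higher. Cortical epithelial markers summed to 1600 to 2077 CPM and 2697 to 3018 CPM. Of 12 tested Tbata, Ccl25 (1.18) and Cd83 (0.89) were higher and Enpep (−1.44) and Kcnq1 (−0.93) lower, and the calls of Ccl25, Cd83 and Enpep were lost when single libraries were left out. Tbata, a gene first described in thymus, brain and testis, stood at 842, 678 and 607 CPM and 1451, 1681 and 1308 CPM (1.18 ± 0.15, adjusted p = 8.2e-07), and Psmb11, the defining proteasome subunit of cortex, was at 0.280 to 4.40 CPM in the 6 libraries. The part of other cells in the changes was not tested.

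Proliferation, AIRE partner and stress genes had called shares near or below those of all tested genes. Of 17 proliferation genes Mcm5 (−0.62) was lower and Rrm2 (0.50, but −0.24 against the numbered wild types) higher. With the numbered wild types as control 8 of the 17 were lower and none higher (median −0.60), and with all 8 wild types 4 were lower, against 19.4% and 16.4% of all tested genes. Of 22 AIRE partner genes Parp1 (−0.46) was lower and Sirt1 (0.88), a deacetylase reported to act on AIRE, higher. That list had 3 lower and 3 higher with the numbered wild types, against 19.4% and 16.9% of all tested genes. Of 20 immediate early and stress genes Dnajb1 (0.62) and Hspa5 (0.73) rose. With the numbered wild types 10 of the 20 were higher and with all 8 wild types 4, against 16.9% and 12.8% of all tested genes.

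The design also allows the effect of -/C313Y to be set against that of losing Aire on the same strain. In NOD Aire -/- against +/-, 1842 genes were called, 13.3% of those tested, 582 higher (4.21%) and 1260 lower (9.11%). The controls of the 2 comparisons differ in genotype, and they share no library. The lower genes of both coincided in 1054 genes, 59.2% of the lower genes of -/C313Y and 83.7% of those of -/-. Higher genes coincided in 501 genes, 36.9% and 86.1%. Called genes of opposite sign numbered 2. Across the 13827 genes the changes correlated with Pearson's r of 0.84, a description over genes, which are not independent replicates.

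The difference between the effects of -/C313Y and -/- was tested directly, and edgeR called no gene (0 of 13827, 0%), with a smallest adjusted p of 0.142 and 871 genes at an unadjusted p under 0.05. DESeq2, which gave an adjusted p for 2835 genes, called 5, named here because they were so few. They were Crip3 (difference 1.0, adjusted p = 0.00223), Oma1 (1.02, 0.00541), Pamr1 (1.08, 0.0312) and Blnk (0.67, 0.0382), with a higher value in -/C313Y, and Snrpc (−1.03, 0.00541), which changed by −0.92 in -/C313Y and 0.09 in -/-. Side by side, Cryaa changed by −4.60 in -/C313Y and −3.32 in -/-, and Hamp by 3.26 and 2.23. Ins2 averaged 0.690 ± 0.423 CPM in -/C313Y and 0.145 ± 0.251 CPM in -/-, and Obp2a 0.914 ± 0.408 and 0.145 ± 0.251 CPM (SD, n = 3 each), where each rested on 1 library of -/-, so that the sizes of these drops cannot be compared. The islet and gut hormones had medians of −3.60 and −3.70, acinar enzymes −4.04 and −4.42, neuropeptides −3.14 and −3.08, and MHC class II genes 0.58 and 0.52. Cd80 changed by 1.71 in -/C313Y and 0.73 in -/- (adjusted p = 0.130), and Cd86 by 2.08 and 0.22 (adjusted p = 0.799). Cd80 averaged 74.5 ± 9.07 CPM in -/C313Y and 74.4 ± 33.6 CPM in -/-, and Cd86 22.4 ± 8.51 and 21.8 ± 6.1 CPM. The controls lay further apart, at 24.7 ± 4.75 CPM in wild type and 49.1 ± 5.69 CPM in +/- for Cd80. For Cd86 the controls averaged 5.78 ± 0.522 CPM in wild type and 21.04 ± 1.39 CPM in +/-. Each of these means is given with its SD (n = 3), and the levels compare across blocks. A test that calls no gene does not show that the effects were equal.

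**Figure D5:**
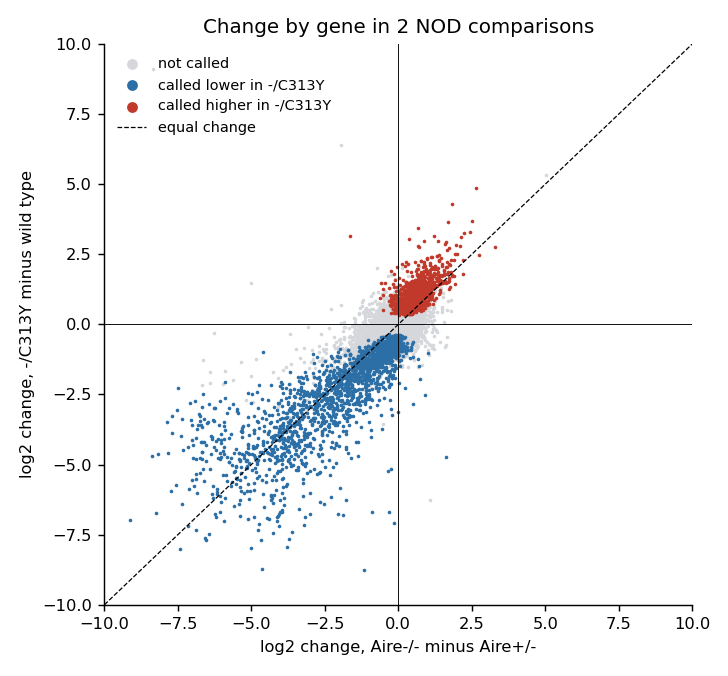
Log2 change of each tested gene in -/C313Y against wild type (vertical axis) and in Aire -/- against +/- on NOD (horizontal axis); points are genes, coloured where called in -/C313Y, and the dashed line marks equal change. Of the genes lower in -/C313Y 95.9% lie below 0 in -/- as well, against 52.2% of all tested genes. Of the higher genes 94.9% lie above 0, against 47.8% of all tested genes.

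In Aire +/C313Y, where a wild-type allele is present, 2402 genes differed from the numbered wild types, 17.4% of those tested, 880 higher (6.36%) and 1522 lower (11%). This comparison shares no library with the main one. Lower genes coincided in 1176 genes, 66.1% of those of -/C313Y and 77.3% of those of +/C313Y, and higher genes in 529, 38.9% and 60.1%. The hormone list had medians of −3.60 in -/C313Y and −2.31 in +/C313Y, acinar enzymes −4.04 and −2.59, neuropeptides −3.14 and −2.06 and MHC class II genes 0.58 and 0.20. The direct test of the difference called 59 genes (0.427%), 32 with a higher and 27 with a lower value in -/C313Y.

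Among the 59 was H19, an imprinted noncoding RNA of the embryo. It stood at 25.2, 18.7 and 24.9 CPM in wild type and 8.12, 11.8 and 12.5 CPM in -/C313Y, and averaged 26.4 ± 9.11 CPM in the numbered wild types (SD, n = 5) and 1.22 ± 0.917 CPM in +/C313Y (SD, n = 4). The change was −0.98 against −4.24, a difference of 3.26 ± 0.55 (adjusted p = 0.00417). In Aire -/- it averaged 0.796 ± 0.877 CPM, and in +/- 21.8 ± 8.66 CPM (SD, n = 3 each). The call of its drop in -/C313Y itself (adjusted p = 0.0283) was lost when single libraries were left out. Clps, pancreatic colipase, showed the reverse, with 44.7, 45.9 and 21.3 CPM in wild type, 2.52, 0.274 and 0.677 CPM in -/C313Y, 17.9 ± 6.02 CPM in the numbered wild types and 8.67 ± 7.02 CPM in +/C313Y (SD, n = 5 and 4). Its changes were −4.80 and −0.94, a difference of −3.86 ± 0.85 (adjusted p = 0.0481). Tekt1, a tektin of sperm flagella, changed by −6.20 and −2.50 (difference −3.71 ± 0.84, adjusted p = 0.0396), and Aspn, asporin of the extracellular matrix, by −6.07 and −1.07 (difference −5.00 ± 0.94, adjusted p = 0.0101). Tekt1 kept 1 count and Aspn 1 count over the 3 -/C313Y libraries, so the size of their drops is uncertain. The count of 59 fell to 21 without -/C313Y 1, 24 without wild type 1, 30 without wild type 2 and 38 without -/C313Y 2, and rose to 198 without the 2 wild types titled C313T.

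The authors' deposited table for the same libraries lists 3364 genes at an adjusted p under 0.05, 2069 lower and 1295 higher in -/C313Y. Of the genes called here 95.2% are among them and none has the opposite sign. For Aire the authors' deposited table gives −0.65 for the log2 ratio of wild type over mutant, with an adjusted p of 0.00310.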

How the data were processed

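MARS-seq libraries of sorted mTEChi were processed by the authors with bcl2fastq, cutadapt, STAR 2.4.2a, HTSeq and DESeq2 on build mm10, per the submitters' processing notes; the annotation, strand setting and handling of molecular identifiers are not given in the sources used here. The authors deposited raw counts per gene and library for the NOD lines with the C313Y and null alleles, and these entered all tests. The authors' deposited log2 fold changes and adjusted p-values were set beside them. The authors' deposited normalized signal (each library's counts over its size factor) and batch-corrected log2 values served only to check that the 6 libraries lie in 1 of the authors' correction blocks, which they do. Every gene in the table has a highest count of at least 6.

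Groups came from titles and genotype labels. All 21 libraries of the table were fitted together with edgeR 4.0.16 in R 4.3.3 (TMM factors, filterByExpr on groups, robust quasi-likelihood F test), and calls required a p below 0.05 after Benjamini-Hochberg adjustment across the whole table. CPM are counts divided by the library total and scaled to the same sum in each library. The B6 sets came from the same kind of fit on the deposited counts of the B6 null line (-/- against wild type). Shares and detected genes were compared with two-sided exact permutation tests. Members and gene lists were chosen with earlier results of these data known.

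Named genes were Aire and its neighbours, the 12 called genes each way with the largest fitted changes whose groups do not overlap (mean of 5 CPM or more in the higher group), up to 5 members with the smallest p of each list, and 5 genes each way for the difference from +/C313Y; symbols of the form Gm with a number or ending in Rik were passed over. Further genes are named where a list had few called or uncalled members. A fold against no counts uses a floor of 3 counts over the group, and ratios on 1 to 3 counts carry a 95% interval. Sequences are from RefSeq promoters on GRCm38.p6 and GENCODE vM21. The code was tested on simulated data. DESeq2 1.42.0, scaling by RLE, all genes unfiltered, fewer or other libraries, a replicate block, other sets and a minimum of 3 counts for detection were tried as alternatives. A sex term for the difference tests and the counts of list members under each alternative were added after seeing the data. No protein sequences were used here. Some items are not reported here. With 3 libraries a group, an exact permutation test cannot give a p under 0.1.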

Additional observations from a re-analysis of the deposited data

Results flagged for a closer look

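The first 10 values below are genes for which the effect of -/C313Y differed from that of +/C313Y by edgeR's test of the difference itself, given as differences of log2 changes. Higher in -/C313Y were Cbln4 by 3.58 ± 0.77 (adjusted p = 0.0292), H19 by 3.26 ± 0.55 (0.00417), Il4, a cytokine of type 2 immunity, by 2.92 ± 0.65 (0.0369), Sez6, a neuronal membrane protein, by 2.14 ± 0.39 (0.00721) and Hoxd4, a homeobox gene, by 1.95 ± 0.44 (0.0381). Cbln4 rose by 4.30 in -/C313Y, and its change of 0.72 in +/C313Y did not pass the test (adjusted p = 0.240). The wild types of Cbln4 differed, at 0.493 ± 0.854 CPM here (SD, n = 3) and 3.71 ± 2.17 CPM in the numbered ones (SD, n = 5). It averaged 10.9 ± 0.447 CPM in -/C313Y (SD, n = 3) and 6.09 ± 1.71 CPM in +/C313Y (SD, n = 4). Il4 and Sez6 were not called in -/C313Y (0.63 and 0.49) and fell in +/C313Y (−2.29 and −1.65). Hoxd4 rose by 1.03 in -/C313Y, a call lost when single libraries were left out, and fell by 0.91 in +/C313Y.

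Lower in -/C313Y were BC048679 by −6.93 ± 1.51 (adjusted p = 0.0426), Aspn by −5.00 ± 0.94 (0.0101), Clps by −3.86 ± 0.85 (0.0481), Tekt1 by −3.71 ± 0.84 (0.0396) and Ctxn3, a small neuronal membrane protein, by −3.66 ± 0.64 (0.00478). Ctxn3 fell by 2.57 in -/C313Y and rose by 1.09 in +/C313Y. BC048679 had no count in any -/C313Y or -/- library and averaged 3.69 ± 2.22 CPM in +/C313Y (SD, n = 4), so its fitted difference depends on the prior count.

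One value stood apart from its group. Pfkl was at 100.8 CPM in 1 of the 5 numbered wild types, far below the other 4 by Dixon's criterion, which chance meets in about 1 in 20 groups. That library is not part of the main comparison.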

How the results depend on the processing

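The number of genes changed in -/C313Y was 3138, and 3123 with DESeq2, 3146 with RLE factors, 3595 without the filter, 3059 with only the 6 libraries, 4046 against all 8 wild types, 3058 with a sex term, 2429 to 2906 with 1 library left out and 5020 against the numbered wild types. Same-numbered libraries deviated from their group means with correlations of 0.06, −0.04 and 0.16, not all over 0.1, so they share only a number; with the replicate block 3081 genes were called. Aire was higher throughout, by 0.58 to 0.86. For the difference from -/- the count of 0 became 5 with DESeq2, 16 with the numbered wild types as the control of -/- and 0 to 2 with 1 library left out; the 2, without -/C313Y 3, were D17H6S56E-5 (2.44) and Snrpc (−1.24). The 59 genes that differed from +/C313Y became 197 with DESeq2, 198 without the wild types titled C313T and 21 to 71 with 1 library left out. The log2 difference in the set's share was −0.47 without a fold limit, −1.13 with a set from B6 Y86C homozygotes, −1.52 without its 5 most abundant genes, −1.34 against the numbered wild types (exact permutation p = 0.0179) and −1.42 to −1.37 with 1 library left out. The difference in detected genes was −1518 at 3 counts or more, −1247 against the numbered wild types (exact permutation p = 0.0179) and −1216 to −1190 with 1 library left out. Of 2150 values of 155 named genes under the alternatives, 2040 kept direction and side of the threshold, 103 lost the call, 3 gained it and 4 reversed: against the numbered wild types Icosl (−0.0749), Rrm2 (−0.24) and Il4 (−0.0452), and against all 8 wild types Rrm2 (−0.0101). Of the 154 genes other than Aire that the naming rules chose, 25 had a call that ended with 1 library left out: Chga, Ccl25, Csf1r, Cd2, Cd79b, Cd83, Dcn, Col1a2, Enpep, Fgfr2, Foxi2, Hnf4a, H19, Hoxd4, Hspa5, Ly6d, Mcm5, Meig1, Parp1, Rrm2, Dmkn, Spink5, Sprr1b, Marveld2 and Tas1r3. Further genes named in the text are not in this count. Among these are Ptf1a, whose call was also lost, and Gcg. Genes near 1 CPM rest on a few counts and the size of their change is imprecise.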

Other observations

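Gene families grouped by symbol after the results were seen gave further counts, beside the background of 9.83% higher and 12.9% lower. Of 24 kallikreins, serine proteases of skin, saliva and other glands, 23 were lower and none higher, with a median log2 change of −2.67; Klk5, which sheds the outer skin layer, stood at 38.5, 39.1 and 47.8 CPM in wild type and 2.52, 4.11 and 1.01 CPM in -/C313Y (−3.85 ± 0.44, adjusted p = 4.86e-07). Klk1b genes are near copies of each other. Of 13 crystallins 12 were lower, and of 29 late cornified envelope and small proline-rich genes 23 were lower and 1, Sprr1b, higher. Of 34 keratins 19 were lower and 2 higher. The higher ones were Krt79, from 92.9, 122 and 84.5 to 310.3, 311 and 325 CPM (1.79 ± 0.25, adjusted p = 1.05e-05), and Krt78 (0.72). Of 32 collagens 17 were lower, and Col14a1 alone was higher, from 32.6, 40.2 and 42.5 to 89.1, 91.8 and 117 CPM (1.49 ± 0.20, adjusted p = 3.87e-06). The 3 embryonic globins in the table fell. Hba-x stood at 37.9, 17.0 and 42.8 CPM in wild type and 0.280, 0 and 0.338 CPM in -/C313Y, a ratio of 182 (95% counting interval 49.9 to 1507).

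Cytokine genes divided, with 5 of 24 interleukins higher and 7 lower. Il12a, a subunit of interleukins 12 and 35, stood at 106, 105 and 96.1 CPM in wild type and 472, 429.2 and 410.0 CPM in -/C313Y (2.22 ± 0.17, adjusted p = 6.27e-10). Il13, a type 2 cytokine, stood at 195, 220.4 and 379.7 CPM and 1151, 873 and 1252 CPM (2.17 ± 0.32, adjusted p = 3.28e-05). Every mutant library was above every wild-type library for both. Of 9 Btnl and Skint genes, butyrophilin-like proteins linked to gamma-delta T cells, 6 were higher and none lower; Btnl1 stood at 1.18, 2.27 and 1.66 CPM and 7.84, 5.48 and 8.79 CPM (2.28 ± 0.45, adjusted p = 0.000400). Of 5 eicosanoid receptors 3 were higher: Cysltr2 (2.35), Ptger3 (1.09) and Ptger4 (0.82). Among caspases and gasdermins, Casp1 and Casp4 rose and 5 gasdermins fell, with Gsdma2 at 30.8, 28.3 and 42.8 CPM in wild type and 0.840, 0.822 and 0.677 CPM in -/C313Y (−5.26 ± 0.45, adjusted p = 3.61e-09).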
